A study of Mus musculus with 15 samples.

Results

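The genes described here encode 8 surface molecules through which macrophages and other antigen-presenting cells speed up or restrain T cells: Cd80, Cd86, Cd40, Cd274 (PD-L1), Pdcd1lg2 (PD-L2), Icosl, Cd83 and Havcr2 (TIM-3). They were chosen by name and found on the array through RefSeq accessions, which gave 9 probes for 8 of the 20145 genes named on it, 2 of them for Cd80. All 9 probes were well above background on all 15 arrays, so each of the 8 genes was among the 13390 tested. RNA of sorted liver macrophages with high F4/80, a macrophage surface protein, was hybridised to one-colour Agilent arrays in 3 groups of 5. The wildtype group (WT_SD) held CD11c-negative macrophages of male mice on standard diet, whose age the labels do not give. Both NASH groups came from male MC4R-KO mice, which lack the melanocortin 4 receptor, a hypothalamic regulator of food intake, and develop non-alcoholic steatohepatitis on Western diet, started at 8 weeks of age and given for 20 weeks. Their macrophages were sorted as CD11c-negative or CD11c-positive. Genotype and diet changed together, so their effects cannot be told apart, and CD11c-positive wildtype macrophages were not analysed here.

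Naive T cells need a signal through CD28, which binds CD80 and CD86, besides recognition of antigen on MHC class II; CTLA-4 competes with CD28 for the same ligands. ICOS ligand binds ICOS on activated T cells, CD40 is engaged by CD40 ligand on helper T cells and signals into the antigen-presenting cell through TRAF adaptors and NF-kB, and PD-L1 and PD-L2 bind the inhibitory receptor PD-1. CD83 is a maturation marker of dendritic cells that opposes removal of class II and CD86 by the ubiquitin ligase MARCH1, and TIM-3 is a receptor, also found on myeloid cells, that binds galectin-9 and phosphatidylserine. Kupffer cells, the resident macrophages of the liver, are known for presenting antigen in a way that favours tolerance.

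Each RNA was pooled from 7 to 9 mice, and no label says whether the 5 arrays of a group hold separate pools. Repeated spots of a probe differed between arrays of a group on a slide by a median SD of 0.0316 to 0.0461 log2, against 0.0555 to 0.0667 between such spots within an array. That spread may be technical, and the p-values below cover nothing beyond it. The 15 arrays lay on 2 slides scanned on 1 day, each slide holding every group, and 45.8 to 58.0% of spots were well above background. Itgax, which encodes CD11c, read 4.21 ± 0.031 in wildtype, 5.93 ± 0.071 in NASH CD11c-negative and 7.29 ± 0.028 in NASH CD11c-positive cells (SD, n = 5), and Adgre1, which encodes F4/80, read 7.34, 7.74 and 7.31. Levels throughout are log2 signal relative to the 75th percentile of the array, and they are compared within a probe, since brightness also depends on the probe. Mc4r stayed at background on all 15 arrays, so the deletion could not be checked. In RNA of sorted pools, fewer cells of a type and less RNA per cell cannot be told apart.

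The promoters of 3 members are shown because Cd274 and Pdcd1lg2, neighbours whose starts lie 43.5 kb apart on chromosome 19, moved the same way between the NASH groups, and because Havcr2 was the member that stepped up at each comparison. Each run holds the 250 bases before the annotated start from RefSeq (GRCm38.p6), on the plus strand, with motif matches in capitals.
Cd274, chr19:29367188-29367437: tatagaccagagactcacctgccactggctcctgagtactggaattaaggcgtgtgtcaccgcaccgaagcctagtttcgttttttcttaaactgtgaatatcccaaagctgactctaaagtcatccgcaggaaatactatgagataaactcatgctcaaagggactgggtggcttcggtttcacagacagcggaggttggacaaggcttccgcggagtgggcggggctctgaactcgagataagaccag
Pdcd1lg2, chr19:29410669-29410918: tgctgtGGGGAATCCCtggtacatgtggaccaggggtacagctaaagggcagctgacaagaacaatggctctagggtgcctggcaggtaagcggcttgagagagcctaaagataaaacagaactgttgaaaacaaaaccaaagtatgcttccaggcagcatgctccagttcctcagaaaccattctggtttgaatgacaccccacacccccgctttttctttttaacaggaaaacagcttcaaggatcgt
Havcr2, chr11:46454681-46454930: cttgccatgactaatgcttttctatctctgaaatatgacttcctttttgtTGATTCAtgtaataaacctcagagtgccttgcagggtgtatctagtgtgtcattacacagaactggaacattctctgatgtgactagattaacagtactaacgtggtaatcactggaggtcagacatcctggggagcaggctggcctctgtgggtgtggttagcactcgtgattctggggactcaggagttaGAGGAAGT
Both strands were searched for the GAS element TTCNNNGAA, the ISRE core, the kappaB motif, the AP-1 motif TGANTCA and the PU.1 motif GAGGAAGT. The Cd274 window held none of the 5. The Pdcd1lg2 window held 1 kappaB match, read on both strands, at 244 to 235 bases before the start. That motif lay in 3.90% of 32851 promoter windows of this length. The Havcr2 window held an AP-1 match at 200 to 194 bases before the start and a PU.1 match at 8 to 1, and these motifs lay in 6.75% and 2.44% of all windows. Promoters were found for 5 of the 8 members; of the other pair, Icosl had no match and Cd80 had 1 AP-1 match at 42 to 36 bases before its start. A match is a run of letters and was not tested as a binding site.

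**Figure D1:**
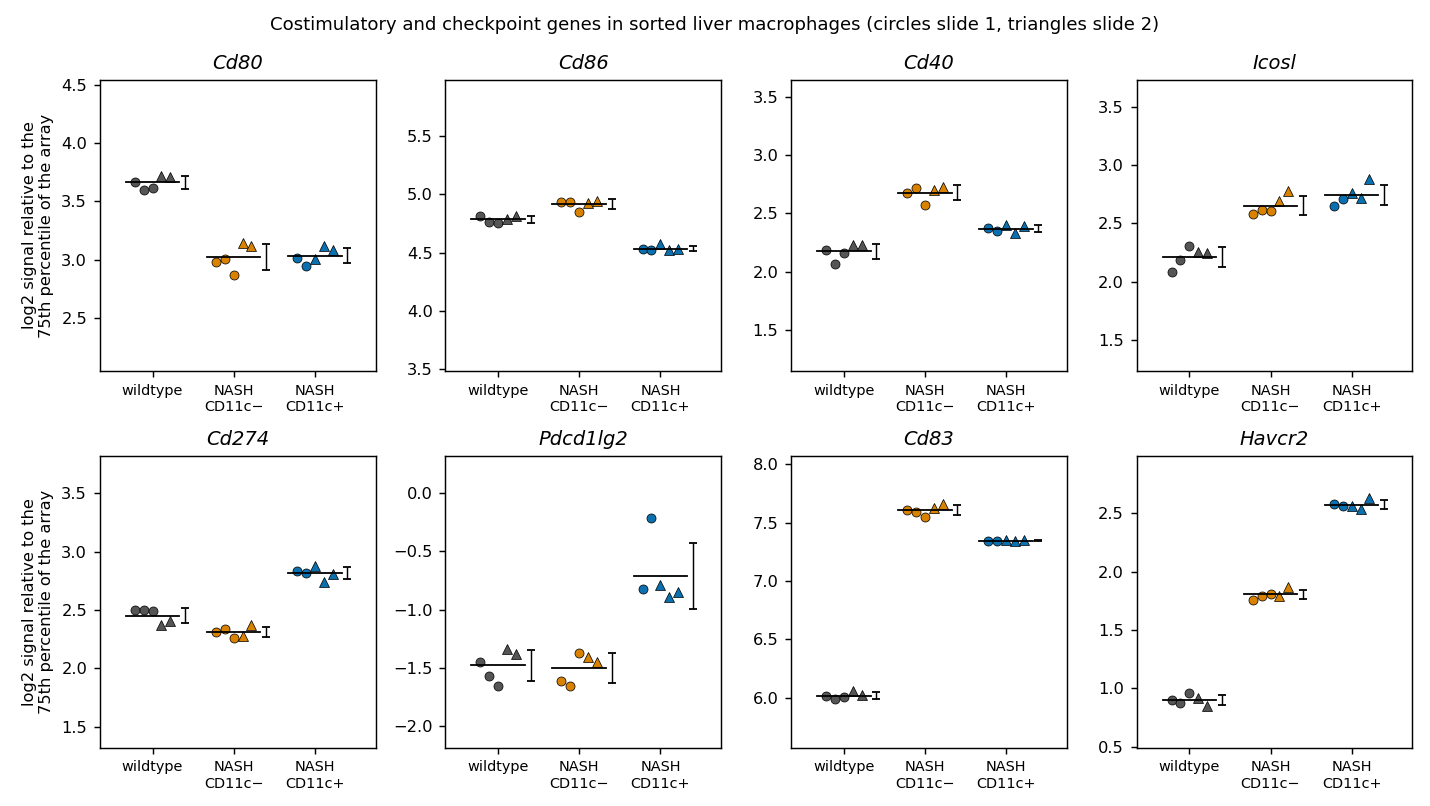
Level of each gene on the 15 arrays, as log2 signal relative to the 75th percentile of the array, by group. Circles are arrays of slide 1 and triangles of slide 2, the line is the group mean and the bar the SD (n = 5); every panel spans the same log2 range, and Cd83 and Havcr2 show the widest separation from wildtype.

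Cd83 had the largest difference of the 8 genes between NASH CD11c-negative and wildtype macrophages. Its log2 level was 6.02, 5.99, 6.00, 6.06 and 6.02 on the wildtype arrays, 7.61, 7.59, 7.55, 7.63 and 7.66 on the NASH CD11c-negative arrays and 7.34, 7.34, 7.35, 7.35 and 7.35 on the NASH CD11c-positive arrays. No array of one group reached the range of another. Cd83 was 3.01-fold higher in NASH CD11c-negative than in wildtype cells (log2 difference 1.59 ± 0.024 SE, adjusted p = 2.523e-16), and 4.64% of all genes tested changed by more. Within the NASH liver it was lower in the CD11c-positive fraction, by 1.20-fold (log2 difference -0.26 ± 0.024, adjusted p = 5.169e-07). Quantile normalisation lowered the first difference to 1.10 log2 without changing the call.

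Havcr2 was the only member that rose in both steps, from wildtype to NASH CD11c-negative and again to NASH CD11c-positive cells; with normexp background correction Icosl did too. It read 0.90, 0.87, 0.96, 0.92 and 0.85 in wildtype, 1.76, 1.79, 1.81, 1.79 and 1.87 in NASH CD11c-negative and 2.58, 2.56, 2.57, 2.54 and 2.63 in NASH CD11c-positive cells. The 3 groups did not overlap. The first step was 1.87-fold (0.91 ± 0.029 log2, adjusted p = 9.665e-13) and the second 1.71-fold (0.77 ± 0.029, adjusted p = 2.489e-11), so that the CD11c-positive cells stood 3.20-fold above wildtype. Within slide 1 the steps were 0.88 and 0.78 log2, and within slide 2 they were 0.95 and 0.75. Timd4, another receptor of the TIM family and a marker of resident Kupffer cells, went the other way, by -2.90 ± 0.036 log2 in the first step and -1.48 ± 0.036 in the second (adjusted p = 2.963e-17 and 2.028e-13). Of the remaining TIM genes of the list, Havcr1 and Timd2 had no probe that passed the filter, and no probe was named for Timd5 and Timd6.

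The PD-1 ligands separated the 2 NASH fractions from each other. Cd274 read 2.50, 2.50, 2.49, 2.37 and 2.40 in wildtype, 2.31, 2.33, 2.26, 2.28 and 2.37 in NASH CD11c-negative and 2.83, 2.82, 2.88, 2.74 and 2.80 in NASH CD11c-positive cells. The CD11c-positive arrays lay above all others, while the wildtype and CD11c-negative arrays overlapped. Cd274 was 1.42-fold higher in CD11c-positive than in CD11c-negative NASH cells (0.50 ± 0.035 log2, adjusted p = 2.785e-08) and 1.29-fold higher than in wildtype (0.36 ± 0.035, adjusted p = 2.376e-07). Between CD11c-negative NASH and wildtype cells it was 1.10-fold lower (-0.14 ± 0.035, adjusted p = 0.002215). This last difference was -0.19 within slide 1 and -0.06 within slide 2, where it did not pass (adjusted p = 0.3724).

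Pdcd1lg2 read -1.45, -1.57, -1.65, -1.34 and -1.38 in wildtype, -1.61, -1.66, -1.37, -1.40 and -1.45 in NASH CD11c-negative and -0.83, -0.21, -0.79, -0.89 and -0.85 in NASH CD11c-positive cells. Every CD11c-positive array lay above every other array, and 1 of them, replicate 2, lay far above its group. Pdcd1lg2 was 1.72-fold higher in CD11c-positive than in CD11c-negative NASH cells (0.78 ± 0.116 log2, adjusted p = 5.338e-05). Without that replicate the difference was 0.66 log2, and with normexp background correction it was 0.45 ± 0.086, called in both cases. Between CD11c-negative NASH and wildtype cells the difference was -0.02 ± 0.116 log2 (95% interval -0.27 to 0.23, adjusted p = 0.8772). Both PD-1 ligands were thus highest in the CD11c-positive NASH cells.

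Between the NASH fractions, summed levels of 11 conventional dendritic cell markers were higher where the PD-1 ligands were; from wildtype to NASH CD11c-negative cells the sum fell, whereas Cd274 differed by -0.14 log2 and Pdcd1lg2 by -0.02. On the linear scale relative to the 75th percentile they spanned 85.6 to 95.2 in wildtype, 47.6 to 53.6 in NASH CD11c-negative and 106 to 116 in NASH CD11c-positive arrays, led by Wdfy4 and Batf3. Of the 11, 10 were higher in CD11c-positive than in CD11c-negative NASH cells (29.9% of all genes). Against wildtype, 10 were lower in CD11c-negative NASH cells (28.5% of all genes). Batf3 itself read 4.47 in wildtype, 4.08 in NASH CD11c-negative and 4.11 in NASH CD11c-positive cells. Xcr1, a receptor of cross-presenting dendritic cells, stayed at background in all 5 NASH CD11c-negative arrays; in the other groups all 11 were detected on 4 or more arrays. Their part in the levels of Cd274 and Pdcd1lg2 was not tested.

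Of the CD28 ligands, Cd86 was highest in CD11c-negative NASH macrophages and lowest in the CD11c-positive ones. It read 4.82, 4.76, 4.75, 4.79 and 4.81 in wildtype, 4.94, 4.93, 4.85, 4.93 and 4.95 in NASH CD11c-negative and 4.53, 4.52, 4.57, 4.52 and 4.53 in NASH CD11c-positive cells. The groups did not overlap. Cd86 was 1.31-fold lower in CD11c-positive than in CD11c-negative NASH cells (-0.38 ± 0.025 log2, adjusted p = 1.095e-08) and 1.19-fold lower than in wildtype (-0.25 ± 0.025, adjusted p = 2.684e-07). The difference between CD11c-negative NASH and wildtype cells was 0.13 ± 0.025 log2 (adjusted p = 0.0001904). That is the median shift of all genes in this comparison, 0.13, and its sign turned under quantile normalisation, to -0.21 ± 0.024 (adjusted p = 1.775e-06).

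Cd80 gave different answers on its 2 probes. The brighter probe, A_55_P2001218, which stood for the gene, read 3.67, 3.59, 3.62, 3.72 and 3.71 in wildtype, 2.97, 3.01, 2.86, 3.14 and 3.11 in NASH CD11c-negative and 3.02, 2.95, 3.00, 3.11 and 3.08 in NASH CD11c-positive cells. Every NASH array lay below every wildtype array, and the NASH groups overlapped. On this probe Cd80 was 1.56-fold lower in NASH CD11c-negative than in wildtype cells (-0.64 ± 0.051 log2, adjusted p = 2.701e-08) and 1.55-fold lower in NASH CD11c-positive cells (-0.63 ± 0.051). The difference between the NASH fractions was 0.01 ± 0.051 log2, with a 95% interval of -0.10 to 0.12 (adjusted p = 0.867).

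The other probe, A_66_P130432, read -0.27, -0.33, -0.27, -0.12 and -0.12 in wildtype, -0.20, -0.17, -0.24, -0.10 and -0.08 in NASH CD11c-negative and -0.07, -0.03, -0.09, 0.03 and 0.00 in NASH CD11c-positive cells. On both probes the arrays of slide 2 tended to lie above those of slide 1 in each group. In a fit over all 28175 kept probes, its difference from wildtype was 0.06 ± 0.048 log2 in CD11c-negative (adjusted p = 0.2485) and 0.19 ± 0.048 in CD11c-positive NASH cells (adjusted p = 0.0026). Between the NASH fractions it was 0.13 ± 0.048 higher in CD11c-positive cells (adjusted p = 0.04441). The gap between the probes was 3.88 ± 0.050 log2 in wildtype, 3.18 ± 0.049 in NASH CD11c-negative and 3.06 ± 0.049 in NASH CD11c-positive arrays (SD, n = 5). It differed between each NASH group and wildtype, and between the NASH groups, by the 2-sided exact permutation test (p = 0.007937 in each, the smallest that 5 against 5 arrays can give). Averaged over both probes, the differences from wildtype were -0.29 and -0.22. The probes thus changed unequally, and no direction is given for Cd80 as a gene.

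**Figure D2:**
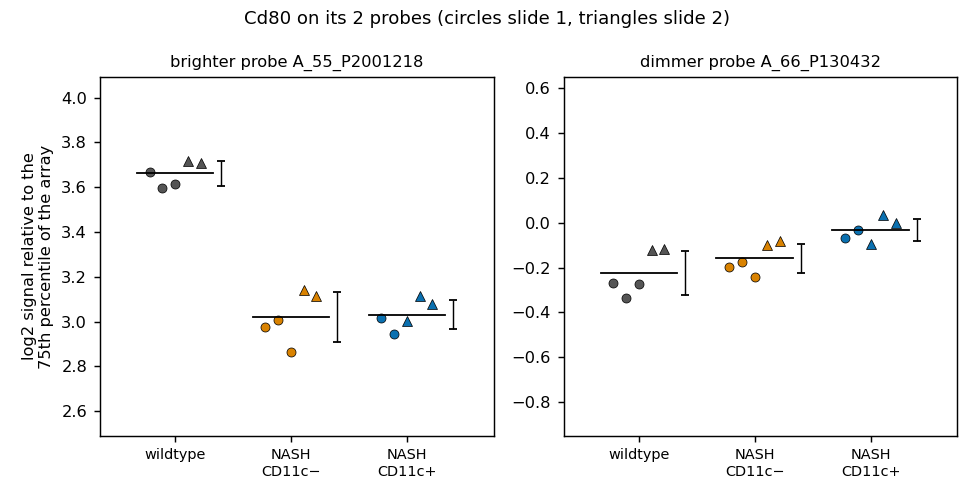
Level of Cd80 on each of its 2 probes, as log2 signal relative to the 75th percentile of the array, by group; circles are arrays of slide 1, triangles of slide 2, the line is the mean and the bar the SD (n = 5). The brighter probe falls from 3.66 in wildtype to 3.02 and 3.03 in the NASH groups, and the dimmer probe reads -0.22, -0.16 and -0.03.

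Most tested markers of several lists were lower in NASH CD11c-negative than in wildtype cells, as was the brighter Cd80 probe. Lower were 7 of 8 tested B cell markers, 9 of 11 T cell, 5 of 7 NK cell, 8 of 10 Kupffer cell, 8 of 10 sinusoidal endothelial and 5 of 8 hepatocyte markers, while 0, 1, 2, 1, 2 and 2 were higher. Of all genes, 28.5% were lower and 48.3% higher in this comparison. The higher ones included Id3 on the Kupffer cell list (0.60 log2) and Kdr and Fcgr2b on the endothelial list (0.44 and 0.64). The summed linear level spanned 60.3 to 68.3, 38.4 to 45.6 and 22.7 to 25.4 for 9 B cell markers in wildtype, NASH CD11c-negative and NASH CD11c-positive arrays, led by Jchain and Cd79b. It spanned 2676 to 2931, 1702 to 1875 and 1326 to 1451 for 10 Kupffer cell markers, led by Cd5l and Vsig4, and 370 to 406, 240 to 256 and 162 to 169 for 10 endothelial markers, led by Clec4g and Stab2. For 8 hepatocyte markers, led by Trf and Serpina1a, it spanned 325.5 to 348.9, 326.8 to 355.1 and 273.4 to 292.5. The hepatocyte sum thus did not fall in NASH CD11c-negative arrays. Pax5, which defines B cells, stayed at background in every wildtype and NASH CD11c-positive array. Their part in the Cd80 signal was not tested.

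Cd40 and Icosl both rose from wildtype to NASH CD11c-negative cells and then parted. Cd40 read 2.18, 2.06, 2.16, 2.23 and 2.23 in wildtype, 2.68, 2.72, 2.58, 2.70 and 2.73 in NASH CD11c-negative and 2.38, 2.35, 2.40, 2.33 and 2.39 in NASH CD11c-positive cells, with no overlap. It was 1.42-fold higher in NASH CD11c-negative than in wildtype cells (0.51 ± 0.036 log2, adjusted p = 8.807e-09) and then 1.24-fold lower in the CD11c-positive fraction (-0.31 ± 0.036, adjusted p = 5.819e-06). Its remaining difference from wildtype in CD11c-positive cells, 0.20 ± 0.036 log2, became -0.00 ± 0.027 under quantile normalisation (adjusted p = 0.9199). Icosl read 2.08, 2.19, 2.30, 2.26 and 2.25 in wildtype, 2.58, 2.61, 2.60, 2.69 and 2.77 in NASH CD11c-negative and 2.65, 2.71, 2.76, 2.72 and 2.88 in NASH CD11c-positive cells. Every NASH array lay above every wildtype array. Icosl was 1.35-fold higher in NASH CD11c-negative (0.44 ± 0.053 log2, adjusted p = 2.692e-06) and 1.44-fold higher in NASH CD11c-positive cells (0.53 ± 0.053, adjusted p = 3.104e-07). Between the NASH fractions it differed by 0.09 ± 0.053, with a 95% interval of -0.02 to 0.21 (adjusted p = 0.1604), which became 0.16 ± 0.035 and passed with normexp background correction (adjusted p = 0.00102).

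Summed levels of myeloid cell markers were also highest in the CD11c-negative NASH fraction, like Cd86, Cd40 and Cd83. For Cd86 this held in the main analysis, but not under quantile normalisation, where the difference from wildtype was -0.21 log2. The summed linear level of 10 neutrophil markers spanned 416 to 436 in wildtype, 1583 to 1734 in NASH CD11c-negative and 647 to 681 in NASH CD11c-positive arrays, led by S100a9 and S100a8. For 7 monocyte markers, led by Plac8 and Chil3, it spanned 86.4 to 93.6, 177 to 193 and 115 to 122, and for 10 macrophage markers, led by Csf1r and C1qc, 1948 to 2146, 2513 to 2752 and 2032 to 2211. Each of these markers was detected on 4 or more arrays of every group. Plac8 itself was highest in wildtype (5.71, against 5.49 and 5.22 in the NASH groups). Against wildtype, 9 of 10 neutrophil, 4 of 7 monocyte and 8 of 10 macrophage markers were higher in NASH CD11c-negative cells (48.3% of all genes). On each list 1 was lower (28.5% of all genes). Between the NASH fractions 0, 2 and 2 were higher and 9, 5 and 7 lower in CD11c-positive cells (29.9% and 23.2% of all genes). The part of these markers in the levels of the 3 genes was not tested.

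**Figure D3:**
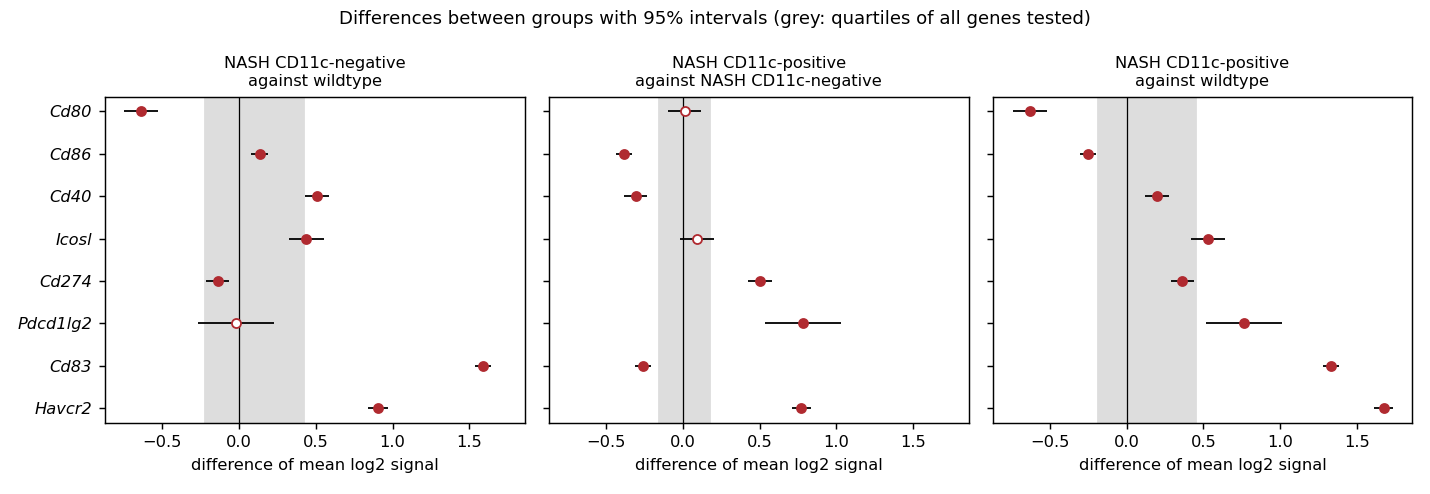
Difference of mean log2 signal for each gene in the 3 comparisons, with the 95% interval; filled points passed an adjusted p of 0.05, open points did not, and the grey band runs from the lower to the upper quartile of all 13390 genes. Cd83, Havcr2 and Icosl lie above and Cd80 below the band in both comparisons with wildtype, and Havcr2, Pdcd1lg2 and Cd274 lie above it between the NASH fractions; Cd80 is its brighter probe.

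Counted over the 8 genes, 5 rose and 2 fell from wildtype to NASH CD11c-negative cells, where 76.8% of all genes passed (48.3% higher and 28.5% lower). At 2-fold or more only Cd83 passed, upwards; 5.18% of all genes were that much higher and 6.22% lower. Cd80 was counted by its brighter probe. The 5 arrays of each group did not overlap for 6 of the 8, against 64.1% of all genes. Between CD11c-positive and CD11c-negative NASH cells, 3 were higher and 3 lower, where 53.1% of all genes passed (29.9% higher and 23.2% lower). None reached 2-fold, a size that 1.66% of all genes reached upwards and 1.19% downwards, and 6 did not overlap, against 39.5% of all genes. Between CD11c-positive NASH and wildtype cells, 6 were higher and 2 lower (77.6% of all genes passed, 51.4% higher and 26.3% lower). Cd83 and Havcr2 were over 2-fold higher, as were 6.65% of all genes, with 7.02% over 2-fold lower, and all 8 did not overlap (69.3% of all genes). The members' median difference was 0.29, 0.05 and 0.45 log2 in the 3 comparisons, beside 0.13, 0.01 and 0.16 over all genes. The comparisons share groups, so their counts are not separate evidence. Within the NASH liver the ligands did not move as a block, since Cd274 and Pdcd1lg2 rose while Cd86 and Cd40 fell.

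Calls against wildtype depended on the scaling. In the main analysis 62.9% and 66.2% of the calls were higher in NASH CD11c-negative and CD11c-positive cells. Quantile normalisation brought these shares to 49.0% and 54.4%, and the all-gene medians to 0.00 and 0.05 log2. The members' counts then became 4 higher and 3 lower, and 5 higher and 2 lower. For Cd274 the differences from wildtype became -0.31 in CD11c-negative and 0.15 in CD11c-positive cells (adjusted p = 1.564e-05 and 0.006124), for Icosl 0.26 and 0.32, and Cd86 became -0.55 in CD11c-positive and Cd40 0.33 in CD11c-negative cells, all still called. Between the NASH fractions Cd83 became -0.13, still called.

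The binding partners of these molecules were read in the same RNA. Of 9 listed, 6 were tested, 3 higher and 3 lower in NASH CD11c-negative than in wildtype cells, with a median of -0.00 log2. Of all genes, 48.3% were higher and 28.5% lower in this comparison. Quantile normalisation gave 2 higher and 2 lower of the 6. Pdcd1, which encodes PD-1, rose from -3.06 to -0.62 (2.45 ± 0.078 log2, adjusted p = 9.997e-13) and stood at -0.44 in CD11c-positive cells, where it was 2.63 ± 0.078 above wildtype (adjusted p = 3.32e-13). With normexp background correction these differences were 1.44 and 1.57 log2, still called. Icos, which encodes the partner of ICOS ligand, fell from 3.58 to 1.44 (-2.14 ± 0.039, adjusted p = 1.84e-15) and to 0.68 in CD11c-positive cells (-0.76 ± 0.039 against CD11c-negative, adjusted p = 7.779e-10). Icos thus fell where Icosl rose, and Pdcd1 rose by 2.45 log2 where the difference in Pdcd1lg2 was -0.02. Cd28 differed by -0.81 ± 0.051 between NASH CD11c-negative and wildtype cells and by 0.63 ± 0.051 between CD11c-positive and CD11c-negative cells (adjusted p = 1.988e-09 and 1.303e-07). Lgals9, which encodes the TIM-3 ligand galectin-9, was 0.49 ± 0.048 higher in NASH CD11c-negative cells (adjusted p = 3.075e-07), or 0.24 under quantile normalisation. Hmgb1, a nuclear protein that TIM-3 also binds, was lower in the CD11c-positive than in the CD11c-negative fraction (log2 difference -0.14 ± 0.024, adjusted p = 0.0002779). With normexp the difference between the fractions was 0.41 for Cd28 and -0.08 for Hmgb1. Ctla4 and Cd40lg had no probe that passed the filter, and no probe was named for Ceacam1. T cell markers summed to 25.3 to 27.8, 19.0 to 24.6 and 20.4 to 23.9 in the 3 groups, led by Cd4 and Cd3e, with Themis at background on all 15. These sums follow their brightest genes. Of 11 T cell markers tested, 1 (Cd4) was higher and 9 lower in NASH CD11c-negative than in wildtype cells, at a median of -1.11 log2. Between the NASH fractions 9 were higher and 0 lower (29.9% and 23.2% of all genes). Cd28, itself on that list, was among those higher. The part of T cells in these partners was not tested.

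Of 22 other ligands of the same kind, 17 were tested, with 12 higher and 4 lower in NASH CD11c-negative and 13 higher and 3 lower in NASH CD11c-positive cells than in wildtype, at medians of 0.48 and 0.53 log2. Of all genes, 48.3% and 51.4% were higher and 28.5% and 26.3% lower in these comparisons; the difference from the list was not tested. Quantile normalisation gave 10 higher and 4 lower, and 11 higher and 4 lower. Cd276 (B7-H3) stayed at background in all 5 wildtype arrays and was at least 4.56-fold higher in CD11c-negative (adjusted p = 3.143e-09) and at least 6.42-fold higher in CD11c-positive cells (adjusted p = 3.945e-10), against the lowest signal called above background on each wildtype array. Tnfsf18, the ligand of GITR, was 2.98 ± 0.078 log2 higher in NASH CD11c-negative cells (adjusted p = 1.117e-13), with 3 of 5 wildtype arrays well above background. With normexp background correction these differences were smaller, 1.08 and 1.25 log2 for Cd276 and 1.61 for Tnfsf18, so the bounds hold for the main processing only. Vsig4, an inhibitory B7 relative and Kupffer cell marker, and Btnl2 were lower, with log2 differences of -0.99 ± 0.041 and -0.89 ± 0.093 (adjusted p = 2.1e-11 and 6.201e-07), and Btnl2 became -0.51 with normexp. Between the NASH fractions 6 were higher and 6 lower, where 29.9% of all genes were higher and 23.2% lower. Those higher included Cd200 (0.89 ± 0.123, adjusted p = 2.946e-05) and Cd24a (0.66 ± 0.037, adjusted p = 2.024e-09). Those lower included Tnfsf18 (-0.95 ± 0.078, adjusted p = 1.647e-07) and Nectin2 (-0.44 ± 0.053, adjusted p = 6.564e-06). Cd200 became 0.40 with normexp, still called.

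Among 16 genes of CD40 adaptors and NF-kB, 10 rose and 2 fell from wildtype to NASH CD11c-negative cells, at a median of 0.23 log2, where 76.8% of all genes passed (48.3% higher). The list's share that passed was thus near that of all genes, of which 28.5% were lower. The split by direction was not tested. Quantile normalisation gave 7 higher and 6 lower, at a median of 0.02. Tnfaip3 and Nfkbia, feedback inhibitors of NF-kB, rose by 1.71 ± 0.028 and 1.04 ± 0.035 log2 (adjusted p = 7.256e-16 and 2.075e-12), and Traf3 and Birc2, which restrain the non-canonical arm, fell (log2 differences -0.18 ± 0.036 and -0.20 ± 0.048, adjusted p = 0.0004239 and 0.001362). The groups overlapped for Birc2, which did not pass within slide 2 (-0.12, adjusted p = 0.2005), and quantile normalisation gave 0.55 for Nfkbia and -0.35 for Traf3. Between the NASH fractions 5 of the 16 were higher and 3 lower, near the shares of all genes, 29.9% and 23.2%. Cd40 itself fell. The adaptor Traf1 rose by 1.44 ± 0.034 and the kinase Map3k14 by 0.40 ± 0.040 (0.20 over the mean of its probes; adjusted p = 1.826e-13 and 1.189e-06), while Nfkbia was at -0.50 ± 0.035 and Traf2 at -0.16 ± 0.046 (adjusted p = 3.129e-08 and 0.007651).

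**Figure D4:**
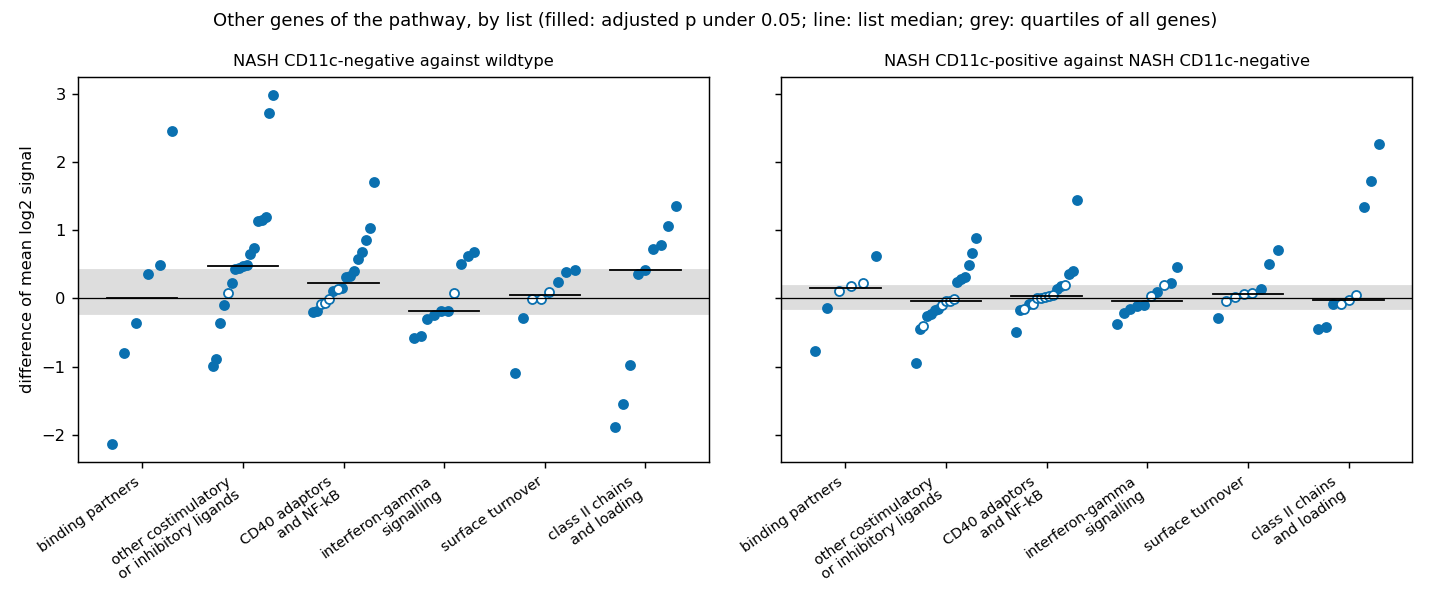
Difference of mean log2 signal for each tested gene of 6 lists around the ligands, NASH CD11c-negative against wildtype on the left and NASH CD11c-positive against NASH CD11c-negative on the right. Filled points passed an adjusted p of 0.05, the line is the list's median and the grey band runs between the quartiles of all genes; medians on the left run from -0.18 for interferon-gamma signalling to 0.48 for other ligands.

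Genes of interferon-gamma signalling, which induces Cd274 and class II in macrophages, were split, 3 higher and 6 lower of 10 in NASH CD11c-negative cells against wildtype (median -0.18 log2). Quantile normalisation gave 2 higher and 7 lower, and 48.3% of all genes were higher and 28.5% lower in this comparison. Ifngr2, a receptor chain, and Ciita, the class II transactivator, were higher by 0.67 ± 0.028 and 0.62 ± 0.203 (adjusted p = 2.16e-11 and 0.01196). Ciita did not pass within slide 2 (0.70 ± 0.424, adjusted p = 0.1821), and Ifngr2 became 0.35 under quantile normalisation. The feedback inhibitor Socs1 was lower, at -0.55 ± 0.034 (adjusted p = 1.636e-09). Between the NASH fractions, where Cd274 and Pdcd1lg2 rose, 3 of the list were higher and 5 lower, beside 29.9% and 23.2% of all genes. Quantile normalisation and normexp each gave 3 higher and 3 lower. The kinase Jak2 rose by 0.46 ± 0.056 and Irf8 by 0.22 ± 0.028, while Irf1 was at -0.37 ± 0.031 and Ifngr2 at -0.21 ± 0.028 (adjusted p = 9.802e-06, 1.061e-05, 1.789e-07 and 2.414e-05). The part of these genes in the levels of Cd274 and Pdcd1lg2 was not tested.

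Genes of class II chains, whose products CD83 keeps at the surface, and of class II peptide loading were 6 higher and 3 lower of 9 in NASH CD11c-negative than in wildtype cells. Of all genes, 48.3% were higher and 28.5% lower in this comparison. H2-Aa and H2-DMb1 rose by 1.36 ± 0.029 and 1.06 ± 0.041 log2 (adjusted p = 1.335e-14 and 9.259e-12). H2-Oa and H2-Ob, the chains of the peptide-loading inhibitor H2-O, fell there, at -1.55 ± 0.064 and -1.88 ± 0.042, and were 2.27 ± 0.064 and 1.72 ± 0.042 higher in CD11c-positive than in CD11c-negative cells (adjusted p = 1.901e-11, 1.753e-14, 1.206e-12 and 2.178e-13). H2-Ab1 was lower in the CD11c-positive fraction (log2 difference -0.44 ± 0.038, adjusted p = 2.324e-07), as was H2-Eb1 (-0.42 ± 0.041, adjusted p = 8.627e-07). Quantile normalisation left -0.12 for H2-Ab1 (adjusted p = 0.04493) and 0.01 for H2-Eb1. It turned the list's count between the fractions from 3 higher and 3 lower to 6 higher and 1 lower. In the main analysis 29.9% of all genes were higher and 23.2% lower between the fractions. Quantile normalisation also lowered H2-DMb1 against wildtype to 0.57 and H2-Aa to 0.87. Of 8 genes for surface turnover of these ligands, 3 rose and 2 fell from wildtype to NASH CD11c-negative cells (48.3% and 28.5% of all genes). Quantile normalisation gave 1 higher and 5 lower. Marchf1, the ligase that CD83 opposes, differed from wildtype by 0.09 log2 and did not pass. Rab11a, a recycling GTPase, and Cmtm4, which stabilises PD-L1, were 0.41 ± 0.096 and 0.39 ± 0.055 higher (adjusted p = 0.001308 and 1.554e-05), although Rab11a did not pass under quantile normalisation (0.15, adjusted p = 0.1387), and Lrba, which protects CTLA-4 from degradation, was 0.70 ± 0.025 higher in CD11c-positive than in CD11c-negative cells (adjusted p = 1.797e-11). The 2 lower in NASH CD11c-negative than in wildtype cells were Lrba (-0.29 ± 0.025, adjusted p = 7.616e-08) and Hip1r (-1.09 ± 0.172, adjusted p = 4.177e-05). With normexp the Hip1r difference was -0.38, still called. Hip1r, which carries PD-L1 to lysosomes, was above background on 3 of 5 NASH CD11c-negative arrays. Its difference between the NASH fractions, 0.51 ± 0.172, was lost with normexp background correction (-0.01 ± 0.085, adjusted p = 0.9434). It did not pass within either slide, nor without NASH CD11c-negative replicate 2 or 3 or CD11c-positive replicate 4 (0.43, 0.42 and 0.35 log2, adjusted p = 0.05985, 0.06079 and 0.05041).

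The genes whose 15 values ran closest to each member's, after centring each gene on its own mean, were taken from 11850 named genes by the root mean square difference in log2. For Cd83 they included Cygb (0.0467) and S1pr2, and for Havcr2 they were Scd2 (0.0689), Nr4a2 and Trerf1. Cd274 ran closest to Asap1 (0.0529), Cdk14 and Jarid2. Pdcd1lg2 was nearest to Tedc1 (0.175), Ccnf and Kif20b, the loosest fit of the 8. Cd86 ran closest to Ncbp3 (0.0422), Atp9a and Smim11, Cd40 to Fau (0.0407), Rpl32 and Rgs2, Icosl to H2az2 (0.0446), Vdac1 and Smarca5, and the brighter Cd80 probe to Siglec1 (0.0454), Zfp975 and Adgre5. Among the members themselves the closest pairs were Cd40 with Icosl (0.191), Cd86 with Cd40 (0.198) and Cd274 with Pdcd1lg2 (0.254), and the farthest was Cd80 with Cd83 (0.995). These distances describe 3 group levels over 15 arrays that share groups and slides, and carry no test.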

How the data were processed

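Sorted liver macrophages were measured on 15 one-colour Agilent arrays, 5 in each of 3 groups taken from the titles. Spot intensity in the scanner files is, per the file headers, the background-subtracted processed signal, not scaled between arrays, and other deposited columns hold flags per spot; the submitters' processing notes name Agilent Feature Extraction 10.7.3.1. The authors also deposited log2 values; how they were made is not stated in the sources here. They lay within a median of 0.00146 of the log2 processed signal minus the array's 75th percentile and the probe's wildtype median, their columns had medians of -0.204 to 0.408, and they served only as an alternative.

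Control spots (3671 of 62976) and outlier spots (113 to 190 per array) were left out; no spot was saturated. Spots of a probe were averaged as log2 signal, and the 75th percentile over probes was subtracted. Probes were named through RefSeq accessions (26582 of 55681; 29099 unnamed). Those well above background on at least 4 of 5 arrays of a group were kept, and each gene was read from its brightest kept probe by mean; 3329 genes had several. Differences came from limma 3.58.1 (lmFit, then eBayes) in R 4.3.3, 2-sided, on all 15 arrays with no covariates, with Benjamini-Hochberg adjustment over 13390 genes and calls at an adjusted p under 0.05. An exact permutation test (SciPy 1.17.1, Python 3.11.15) compared the Cd80 probes; figures were drawn with matplotlib 3.10.9. The fit was tested on simulated data.

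The members and gene lists were chosen with earlier results of these data known. Genes outside the 8 were named by a rule: the 2 passing genes with the largest rise and the 2 with the largest fall in each list and comparison (not all are printed), the 2 brightest genes of a marker list, and the 3 genes closest to each member. Marchf1 was named after its values were seen. Id3, Kdr, Fcgr2b, Xcr1, Pax5 and Themis, from the marker lists, were also named outside this rule, for their values or detection. A few genes falling under this rule are not reported here. A group in which no array was above background gives a lower bound, from the mean of the higher group against, per array, the lowest signal called above background or the probe's own. Alternatives were background correction, scaling, the filter, the choice of probe, slide and replicate number as blocks, each slide alone, the deposited values, limma's prior, weights per array, and leaving out each array in turn. The number of arrays limits the precision.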

Additional observations from a re-analysis of the deposited data

Results flagged for a closer look

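Of 24 sets of 5 arrays (8 genes in 3 groups), 2 held an array far from the others by Dixon's test at 95%, where chance alone flags about 1 set in 20. Pdcd1lg2 in NASH CD11c-positive replicate 2 read -0.2124 log2, and the nearest of the other 4 arrays read -0.7878. Without that array Pdcd1lg2 was 0.66 log2 higher in CD11c-positive than in CD11c-negative NASH cells. Cd86 in NASH CD11c-negative replicate 3 read 4.8479 log2, the lowest of its group, and the nearest array read 4.9286; without any 1 array the difference of Cd86 from wildtype ran from 0.12 to 0.15 log2.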

How the results depend on the processing

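Over 30 alternatives, 715 of 723 values of the 8 genes kept their side of the threshold, and their direction unless they passed in neither setting. Differences near 0 that passed in neither could change sign and are not listed below. Examples are Pdcd1lg2 between NASH CD11c-negative and wildtype cells (-0.0205, and 0.0228 under quantile normalisation) and Cd80 between the NASH fractions (0.0115, and -0.0622 within slide 2). The direction turned under quantile normalisation for Cd86 between NASH CD11c-negative and wildtype cells (-0.209) and for Cd40 between NASH CD11c-positive and wildtype cells (-0.0032), and for Cd80 on its dimmer probe (0.0635 and 0.1905 against wildtype in CD11c-negative and CD11c-positive cells). Among the list genes named for NASH CD11c-negative against wildtype cells, Rab11a, Ciita and Birc2 each lost the call under 1 setting. Between the NASH fractions Hip1r turned to -0.0081 with normexp and H2-Eb1 to 0.0142 with quantile normalisation. Cd274 lost its call against wildtype within slide 2 (-0.061), Icosl between the NASH fractions gained one with normexp (0.16) and with the replicate block (0.09, adjusted p = 0.03625), and Cd80 gained one there on its dimmer probe (0.13). The causes were not tested. Members called ran from 6 to 7, 6 to 7 and 7 to 8 in the 3 comparisons, and from 7 to 7, 6 to 6 and 8 to 8 with 1 array left out. With every kept probe fitted, 20463, 12766 and 19945 of 28175 probes passed, against 10280, 7116 and 10392 of 13390 genes, which follows from the larger number fitted. Numbers shared between groups were not taken as a pairing, since no label gives one. Of 15 same-numbered pairs, 11 correlated over 0.1, and in 8 of 15 the own number correlated best. Slide was not removed from these correlations, and most same-numbered arrays shared a slide. The correlations therefore cannot tell a pairing from a shared slide. With the replicate number as a block, 7, 7 and 8 members and 10736, 7948 and 10776 genes passed. Precision was lowest for Pdcd1lg2, with an SD between arrays of up to 0.283 log2, although its probe was well above background on all 15 arrays.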
